A study of Mus musculus with 2 samples.

Results

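Major histocompatibility complex (MHC) class II molecules are cell-surface dimers that present peptides from endocytosed protein to CD4+ T cells. They fold around the invariant chain, which is cut away by lysosomal proteases, and the DM and DO proteins then govern the exchange of its remnant for antigenic peptide. Their genes share a promoter module that recruits the transactivator CIITA. In skin, class II is carried mainly by Langerhans cells, the dendritic cells of the epidermis, and by dendritic cells and macrophages of the dermis. Langerhans cells are marked by langerin (Cd207) and also carry EpCAM, an adhesion molecule that hair follicle keratinocytes make as well.

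Described here are 10 genes chosen by name: the class II chains H2-Aa, H2-Ab1 and H2-Eb1, the peptide exchange genes H2-DMa, H2-DMb1 and H2-Oa, the invariant chain gene Cd74, the transactivator gene Ciita, and the Langerhans cell genes Cd207 and Epcam. They were found by gene name among the non-control spots. Ciita was listed under its older name C2ta and Epcam as Tacstd1. The 10 genes had 16 probes on 25 spots, out of 41165 probes, and are among 16610 genes measured on both arrays. A gene counts as measured where at least 1 probe was well above background on both arrays, and this held for 10 of the 10. Of their probes, 15 of 16 met the condition. The remaining H2-Ab1 probe gave background signals of 4.77 for FGF18 and 6.15 for PBS.

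Both groups were C3H/HeN male mice aged 61 days, whose back hair had been removed 5 days earlier to start anagen, in which follicles grow new hair. On day 4 one group was injected under the skin with FGF18 protein (1 µg per mouse), a growth factor of the hair follicle, and the control group with phosphate-buffered saline (PBS). Full-thickness back skin was taken 24 h later, and the series asked which genes locally delivered FGF18 affects. The protocol names 3 mice without saying whether that is per group. RNA was pooled within a group according to the design text, and each pool went to 1 single-colour Agilent array. The PBS sample's title says telogen, the resting phase, whereas its other labels say anagen.

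Having 1 array for each group, the comparison has no replicate check and allows no test, and its precision is limited by that number. Well above background were 62.4% of non-control spots for FGF18 and 61.5% for PBS. Ratios are log2 of the FGF18 signal over the PBS signal after each array was scaled to its 75th percentile. This scaling changed every log2 ratio by -0.18, and the median of all genes was then -0.07. That median was 0.11 without scaling and 0.74 after scaling to spike-in transcripts. Members are therefore read against the median of all genes. Errors marked ± carry the scanner software's own error estimate of each spot into the ratio. For a gene with several probes, the probes' errors were combined as if independent. The errors cover the measurement on these arrays and not the spread between mice.

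Reference promoter sequences show what several class II members share beyond their names. RefSeq promoters of assembly GRCm38.p6, from 250 bases before to 50 bases after the start, were at hand for 7 members, and H2-Ab1, Cd74 and Ciita were not among them. Of these, 4 held the 8-letter motif CNNGNAAC followed after 24 to 29 bases by TGATTGG, searched on both strands. The motifs were written down after these promoters had been read. They correspond to the X box and Y box of class II promoters, bound by RFX and NF-Y proteins, with which CIITA associates. The windows below run 5′ to 3′ along each gene's own strand, with both motifs in capitals. Whether the pair bears on the ratios was not tested.
H2-Aa: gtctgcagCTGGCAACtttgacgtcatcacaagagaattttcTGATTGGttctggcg
H2-Eb1: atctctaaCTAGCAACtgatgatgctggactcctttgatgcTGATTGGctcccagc
H2-DMb1: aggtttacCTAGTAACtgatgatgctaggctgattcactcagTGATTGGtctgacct
H2-Oa: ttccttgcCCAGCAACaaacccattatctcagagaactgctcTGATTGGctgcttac

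The H2-Aa window lies at chr17:34287859-34287915 on the minus strand. On the plus strand lie those of H2-Eb1 at chr17:34305765-34305820, H2-DMb1 at chr17:34153086-34153142 and H2-Oa at chr17:34092292-34092348. The gap between the motifs was 26 bases in H2-Aa, H2-DMb1 and H2-Oa and 25 in H2-Eb1. The pair was present in 0.0578% of 32851 promoters (19 promoters of 17 genes, among them H2-Eb2). CNNGNAAC alone was in 39.1% and TGATTGG alone in 7.82%. The listed promoters of H2-DMa, Cd207 and Epcam did not hold the pair in this window. The reference sequence is that of C57BL/6J mice, whereas C3H mice carry another H2 haplotype.

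The largest difference among the 10 genes was a lower signal of Cd207 on the FGF18 array, and the class II genes differed by less than 1.5-fold. Of the 10, 0 were higher by 2-fold, against 1.54% of all genes, and 0 were lower by 2-fold, against 0.987%. Ratios under 0 were found for 10 of 10 members and 62.5% of all genes. The members' log2 ratios ran from -0.74 to -0.03 with a median of -0.22, which is 0.15 below the median of all genes. Of the 10, 8 were below that median and 2 (H2-Eb1 and Ciita) above it. For 5 members the distance from it was within the error, and the 5 beyond it (H2-Aa, H2-DMb1, H2-Oa, Cd207 and Epcam) lay below. H2-DMb1 was beyond it only with a probe that is also assigned to H2-DMb2. On its other probe alone (-0.15 ± 0.20) it was within the error. The share of all genes beyond their own error was not counted, so these counts are no result about the members as a group. The ratios of all genes had an SD of 0.40, against a median error of 0.21 per probe. A lower signal in whole skin can come from fewer cells of a type or from less RNA per cell, and these cannot be told apart here.

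**Figure D1:**
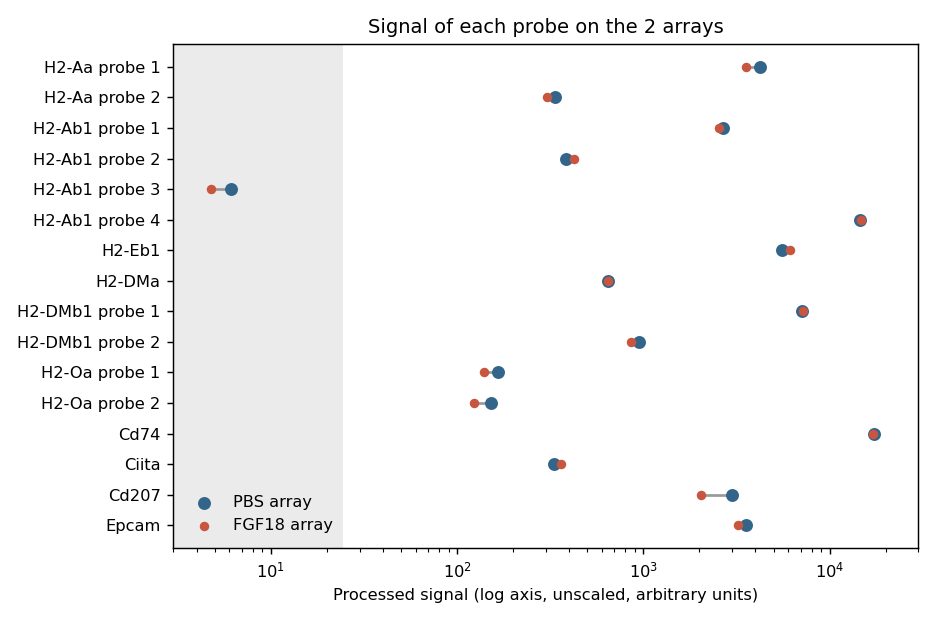
Processed signal of each of the 16 probes on the PBS array (blue) and the FGF18 array (red), on a log axis without scaling between arrays; the grey zone marks signals under 24.2, the lowest well above background on the PBS array. The points of each pair lie close together, except for Cd207 (3000 and 2040) and the H2-Ab1 probe in the grey zone.

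The chains that present peptide were H2-Aa, H2-Ab1 and H2-Eb1. H2-Aa, the alpha chain of the I-A molecule, had signals of 3540 for FGF18 and 4230 for PBS on one probe, and 305 and 334 on the other. Both probes were lower on the FGF18 array, by log2 ratios of -0.44 and -0.31. The gene's ratio was -0.38 ± 0.15, and 11.8% of all genes had a lower one. Without scaling it was -0.19, and after spike-in scaling 0.43, while its distance from the median of all genes was -0.31 in the main setting.

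H2-Ab1, the beta chain that pairs with H2-Aa, allowed the closest look at measurement error, because one of its probes was printed as 10 spots. The signals of these spots ranged from 2470 to 2640 with a median of 2565 for FGF18, and from 2530 to 2770 with a median of 2690 for PBS. The same spot was lower on the FGF18 array in 10 of 10 positions, although the ranges overlapped. The unscaled log2 ratio was -0.06 ± 0.0324 (SD, n = 10 spots). Repeat spots share 1 labelled RNA per array, so this SD is a printing and reading error only. The other measured probes had signals of 423 for FGF18 and 385 for PBS, and of 14700 and 14600. Without scaling these probes thus leaned slightly the other way, whereas after scaling all 3 measured probes were below 0. The gene's ratio over 3 probes was -0.15 ± 0.12, or 0.03 without scaling. Probes of H2-Ab1 differed among themselves, from -0.24 to -0.05, by more than the repeat spots of one probe did.

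**Figure D2:**
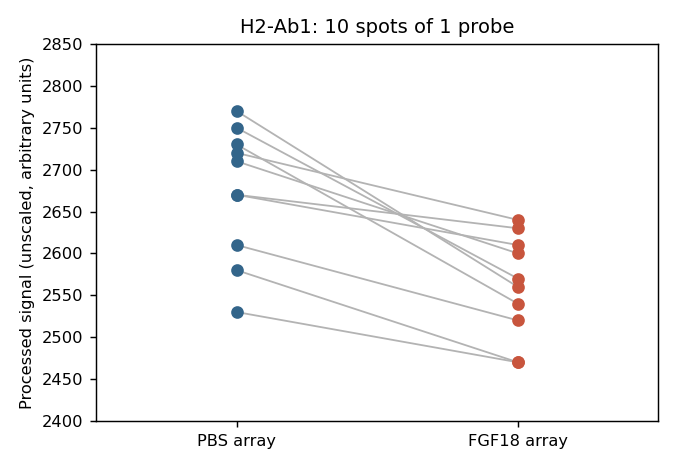
Processed signal of the 10 spots of 1 H2-Ab1 probe on the PBS and FGF18 arrays, with lines joining spots at the same array position; the vertical axis is unscaled and does not start at 0. Each line falls from PBS (2530 to 2770) to FGF18 (2470 to 2640), by a small part of the signal.

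H2-Eb1, the beta chain of the I-E molecule, had signals of 6150 for FGF18 and 5520 for PBS. It was the member with the highest ratio (-0.03 ± 0.20), above 58.1% of all genes, and its unscaled ratio was 0.16. The file names this single probe H2-Eb1 but describes its target as an I-A beta transcript of NOD mice, so its target is uncertain. The partner chain gene H2-Ea and the related H2-Eb2 were not well above background on either array. H2-Ea, whose signals were 23 for FGF18 and 28.1 for PBS, is annotated as a transcribed pseudogene in the C57BL/6J reference, whereas C3H mice carry an expressed form. Whether its probe matches the C3H allele was not tested.

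Among the genes of peptide exchange, H2-DMa and H2-DMb1 encode the DM dimer that removes the invariant chain remnant, and H2-Oa encodes a chain of DO, which restrains DM. H2-DMa was almost level, with signals of 643 for FGF18 and 646 for PBS (-0.19 ± 0.20). H2-DMb1 had signals of 7220 and 7070 on one probe. On its other probe, which is also assigned to H2-DMb2, they were 863 and 946. The ratio of H2-DMb1 was -0.23 ± 0.14. Relative to the median of all genes, H2-DMa was at -0.12 and H2-DMb1 at -0.16.

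H2-Oa was dimmer and stood lower. Its probes had signals of 139 for FGF18 and 166 for PBS, and of 123 and 152. Both probes were lower on the FGF18 array, and their ratios (-0.44 and -0.49) were close to each other. For comparison, the 4183 genes with 2 measured probes had a median gap of 0.16 between them. The ratio of H2-Oa was -0.46 ± 0.15, and 7.78% of all genes were lower still. The partner chain gene H2-Ob and the DM gene H2-DMb2 were not well above background on either array.

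Cd74, the invariant chain, had signals of 17000 for FGF18 and 17300 for PBS, a ratio of -0.21 ± 0.20. Ciita, whose product switches on class II genes in response to interferon gamma and in dendritic cells, had signals of 360 and 332 (-0.06 ± 0.21). Both lay within their error of the median of all genes, and 51.0% of genes were lower than Ciita. The 8 class II and transactivator members together ran from -0.46 to -0.03, with a median of -0.20.

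Cd207, the langerin gene, had signals of 2040 for FGF18 and 3000 for PBS. This was a ratio of -0.74 ± 0.20, or 1.67-fold lower, and 2.69% of all genes had a lower one. Cd207 was the member with the lowest ratio under each of the 14 alternatives. Its ratio was 0.07 with spike-in scaling and -0.74 to -0.56 otherwise. Most of these alternatives hardly tested that order. Scaling by a constant per array shifts all members alike, and filter and probe settings left Cd207 unchanged. Single ratios could shift with quantile normalization, a loess curve between the arrays and a background model (normexp). There Cd207 was at -0.71, -0.68 and -0.69, and the next lowest member at -0.41, -0.38 and -0.36. With the main scaling Cd207 was the 1 member lower by 1.5-fold, as 4.82% of all genes were. With the same scaling 0 members were higher by 1.5-fold, as 3.79% of all genes were. Without scaling (-0.56) or with spike-in scaling, Cd207 did not reach 1.5-fold lower. The Cd207 value rested on 1 probe and 1 spot, and which cells of the full-thickness skin gave it was not tested. Epcam had signals of 3220 for FGF18 and 3560 for PBS (-0.33 ± 0.20), so it was lower by less. Of 10 keratinocyte genes that were examined because follicle cells also make EpCAM, 0 were past 2-fold and their median was -0.28. Among these, Cdh1, the E-cadherin by which Langerhans cells also hold to keratinocytes, was at -0.35, Krt14 at 0.02 and Krt79 at -0.50. The part of keratinocytes in the Epcam value was not tested.

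**Figure D3:**
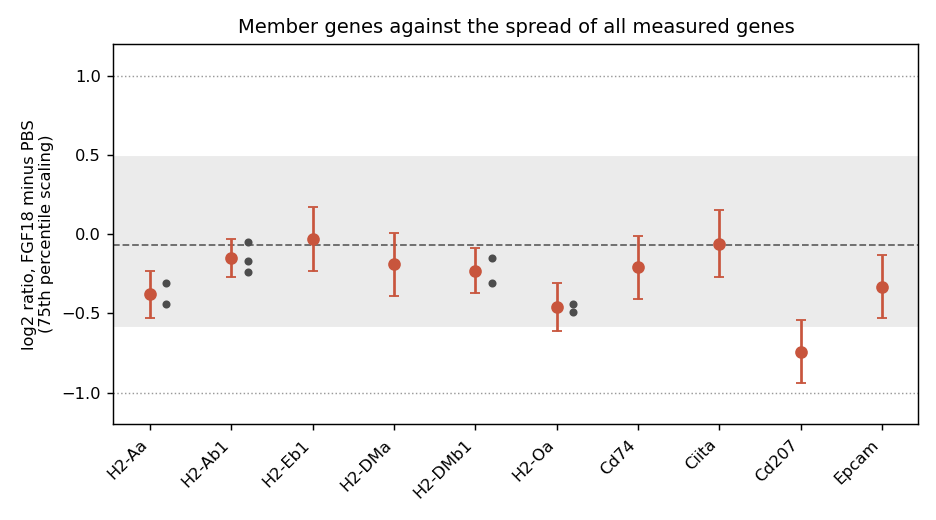
Scaled log2 ratio (FGF18 minus PBS) of the 10 members, as the mean over measured probes with the scanner software's error as bars; small grey points are single probes where there were several. The grey band spans the 5th to 95th percentile of all genes (-0.58 to 0.49), the dashed line their median and the dotted lines 2-fold; Cd207 at -0.74 lies below the band and the other 9 members inside it.

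The remaining genes of the class II pathway were taken from a list of 18, of which 14 were measured. Of these, 0 were past 2-fold (2.53% of all genes were, in either direction), and their median was 0.02. The DNA-binding partners of CIITA ran from -0.28 to 0.11. Rfx5, Rfxap and Rfxank, the X box proteins, were at 0.02, 0.01 and -0.24, and the Y box genes Nfya, Nfyb and Nfyc at 0.11, -0.28 and 0.07. Creb1, a factor that binds beside the X box, was at -0.16, with probes from -0.35 to -0.03. Genes for cutting the invariant chain and antigen were less even. Ctss, the cathepsin that completes the cutting of the invariant chain in dendritic cells, had signals of 37300 for FGF18 and 16500 for PBS, a ratio of 0.99 that is just under 2-fold. Without scaling it was 2.26-fold higher. Lgmn, an endopeptidase of the same route, was 1.41-fold higher (16900 and 10600). Ifi30, the thiol reductase that opens disulfide bonds of antigen, was level at -0.02, and Ctsl at -0.06. Sppl2a, which removes the last stub of the invariant chain, was at 0.52, but its 4 probes ranged from -0.24 to 1.63. Marchf1, a ligase that marks class II for breakdown, was at 0.30 and its relative Marchf8 at -0.27.

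Upstream of Ciita, 8 of the 9 genes of the interferon gamma route reported here were measured on both arrays, with a median of 0.11 and a range of -0.19 to 0.53. Ifng itself was well above background on the FGF18 array alone, with signals of 48.6 and 87.2 on its probes against 13.6 and 21.2 on the PBS array. Against 24.2, the lowest signal counted as well above background for PBS, Ifng was 1.77-fold and 3.18-fold higher by these probes after scaling. These folds are no lower limits, because an H2-Ob probe gave 33.7 for PBS without meeting the background condition. Irf1, a factor that binds the Ciita promoter, was 1.44-fold higher. The receptor genes Ifngr1 and Ifngr2 were at -0.07 and -0.19, Jak1 and Jak2 at 0.17 and 0.13, and the inhibitor Socs1 at 0.09. Against a median of all genes of -0.07, Ciita had a ratio of -0.06 and the class II genes ran from -0.46 to -0.03, whereas Irf1 was at 0.53.

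On chromosome 17 the class II genes stand interleaved with genes that serve class I, the molecules that present cytosolic peptides to CD8+ T cells. In the RefSeq gene order from H2-Oa to H2-Ea there were 16 genes, 6 of them members, and 11 were measured. Psmb9 and Psmb8, subunits of the immunoproteasome, and Tap1 and Tap2, the peptide transporter, lie side by side between H2-DMb1 and H2-Ob. Psmb9 had signals of 8700 for FGF18 and 4920 for PBS, Tap1 1360 and 691, and Tap2 1710 and 894. These 4 neighbours had ratios from 0.49 to 0.80, whereas the 6 members of the same stretch ran from -0.46 to -0.03. Brd2, a chromatin reader gene between H2-Oa and H2-DMa that belongs to neither group, was at 0.19 ± 0.20, between these ranges. The ranges of the 4 and the 6 genes did not overlap, and no test of this difference was possible with 1 array per group. Among all genes, 7.78% were below the lowest of the 6 members and 58.1% below the highest, so their range is a common one. The 95th percentile of all genes was 0.49. Elsewhere in the class I list, H2-K1 was 1.40-fold higher, H2-T23 1.51-fold and B2m, the light chain, 1.09-fold. Of 9 measured class I genes, 9 were above the median of all genes and 0 past 2-fold, with a median of 0.57.

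**Figure D4:**
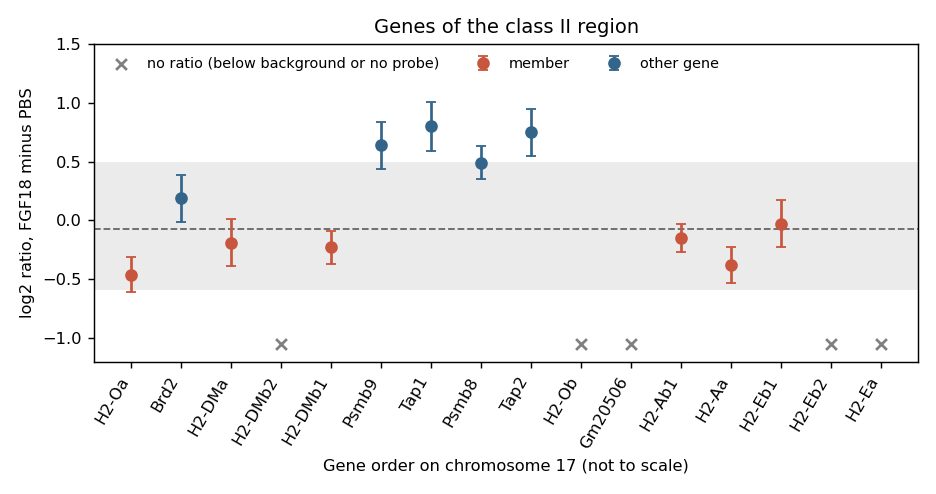
Scaled log2 ratio (FGF18 minus PBS) of genes in their order along chromosome 17 from H2-Oa to H2-Ea, not to scale; bars are the scanner software's error, the band and dashed line the 5th to 95th percentile and median of all genes, and crosses genes with no ratio. The 4 neighbouring genes Psmb9, Tap1, Psmb8 and Tap2 (0.49 to 0.80) stand above the 6 members (-0.46 to -0.03) on either side.

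Markers of dendritic cells were detected in the skin. Itgax, an integrin of dendritic cells, had signals of 626 for FGF18 and 618 for PBS (-0.16), and Ly75, an uptake receptor, 172 and 180 (-0.25). Of the 28 genes listed for Langerhans and dendritic cells, Itgax and Ly75 included, 27 were measured, with a median of -0.05 and 0 past 2-fold. They did not lie on one side: 13 were below the median of all genes and 14 above it. Near Cd207 at the low end stood Cd209a, the DC-SIGN homologue of dermal dendritic cells, at -0.70 (75.3 and 108), and Ccr6, the receptor that guides Langerhans cell precursors, at -0.52 (59.8 and 75.5). Csf1r, which Langerhans cells need for survival, was at -0.31, and Il34, its ligand made by keratinocytes, at -0.22. Of other dendritic cell genes in the list, Itgae was at -0.45, Xcr1 at -0.30, Clec9a at -0.05 and Batf3 at 0.19. Genes tied to dendritic cell activation were spread over the range. Cd40, the receptor for T cell help, had signals of 228 and 101 (0.99, just under 2-fold, and 2.25-fold without scaling), Ccr7, which leads dendritic cells to lymph nodes, 74.8 and 45 (0.55), and the costimulator Cd86 230 and 140 (0.54, with probes at 0.06 and 1.01). Cd83, also an activation marker, was at -0.25, and Relb, a transcription factor of maturing dendritic cells, at 0.00. The costimulator Cd80 was not well above background on either array.

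Markers of other cells were also examined. Of 6 pan-leukocyte genes, 6 were above the median of all genes, with a median of 0.56. Their summed signal, without scaling between arrays, was 15269 for FGF18 and 9583 for PBS, most of it from Cd52 (8560 and 5550). Ptprc (CD45) was 1.62-fold higher and Cd53, a tetraspanin of leukocytes, 2.09-fold. The 9 measured macrophage and monocyte genes reported here had a median of -0.19, with 5 below the median of all genes and 4 above it. Those above were Itgam (0.99), Ccr2 (0.66), Cd68 (0.31) and Adgre1 (0.14). Those below were Mrc1 (-0.70), Lyz2 (-0.45), Cd163 (-0.40), Cd14 (-0.27) and Mertk (-0.19). The unscaled summed signal of that list was 18166 for FGF18 and 19248 for PBS. Of 8 B cell genes, which could bring class II of their own, 3 were measured on both arrays, and Cd79a, Ms4a1 and Pax5 were not well above background on either. The list's unscaled summed signal was 1423 for FGF18 and 930 for PBS, most of it from Ighm. The part of these cells in the members' values was not tested.

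**Figure D5:**
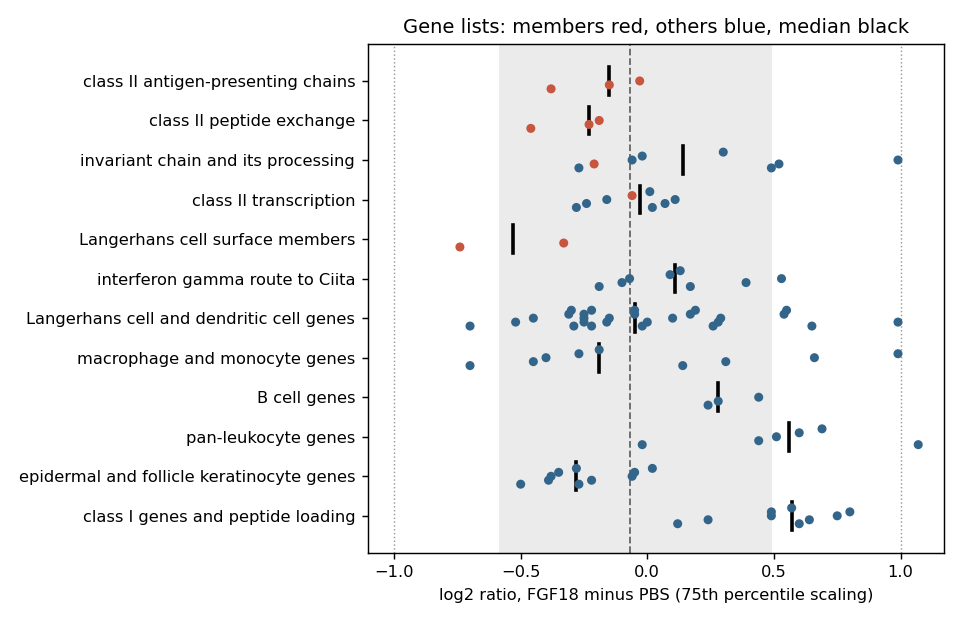
Scaled log2 ratio (FGF18 minus PBS) of each measured gene in 12 lists, members in red, other genes in blue and the list median as a black bar; the band and dashed line show the 5th to 95th percentile and median of all genes, and dotted lines 2-fold. Class I (0.57) and pan-leukocyte genes (0.56) have medians to the right of the band's middle, and the class II chain (-0.15) and peptide exchange genes (-0.23) do not.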

How the data were processed

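Per the file headers, Feature Extraction 9.5.3.1 (Agilent) produced the spot values, with spatial and multiplicative detrending on, background correction off and surrogate values used near background. The deposited intensity values used here are the processed signal and its error, with other deposited columns for spot flags. In the series value table, a ratio made by the authors, each column equals the processed signal over that array's median (83.8 for FGF18, 80.0 for PBS), without a log or centring by gene. The column medians were 1.00 and 0.999. Both arrays came from 1 slide and 1 scan.

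Here, log2 signals had each array's 75th percentile over spots subtracted (1020 and 899), outlier spots were left out, spots of a probe and then measured probes of a gene were averaged, and a probe was measured where at least 0.5 of its spots were well above background. The lowest such signals were 23.3 for FGF18 and 24.2 for PBS. Names came from the files and a RefSeq table of GRCm38.p6, whose order alone was used, since the files name no build. Genes could be named if they were members, in the fixed lists, or in the class II region. Members, lists and the rule were chosen with earlier results of these data known. A gene of the interferon gamma list and a gene of the macrophage list are not reported here and were left out of those lists' counts. Normalizations used limma 3.58.1 and Python 3.11.15. The ratio computation was checked on simulated data.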

Additional observations from a re-analysis of the deposited data

How the results depend on the processing

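The count of members 2-fold higher was 0, and of those 2-fold lower 0, under each of the 14 alternatives (12 planned, and 2 chosen after seeing the data) and at a fold of 3. At 1.5-fold in the main setting, 1 member was lower (Cd207) and 0 higher. Without scaling or with spike-in scaling, Cd207 did not reach 1.5-fold lower. The members' median log2 ratio, -0.22, ran from -0.24 without a filter on dim probes to -0.04 without scaling. It was 0.59 with scaling to 7 spike-in probes, which adds 0.81 to every ratio. Against the median of all genes it was -0.16 to -0.06 throughout. Of 139 member values under the alternatives, 125 stayed within their error. Many of these could not move, because filter and probe settings leave members with 1 probe unchanged. Of the 14 values that moved, 10 did so with spike-in scaling. Signs against 0 depended on the scaling. H2-Eb1 was above 0 with median scaling (0.09) and the series value table (0.09), among others, and so was Ciita with these (0.05 in both). Without scaling 3 members were above 0 (H2-Eb1, Ciita and H2-Ab1), and with spike-in scaling the members ran from 0.07 to 0.78. The added alternative without the H2-DMb1 probe shared with H2-DMb2 and the H2-Eb1 probe of uncertain target left a median of -0.21 over 9 members. No paired analysis was possible because each group has 1 array, and no replicate could be left out. Signal limits the dimmer probes: repeat spots had a median SD of 0.109 (log2) for signals of 31.8 to 430, which covers H2-Oa, Ciita and 1 probe each of H2-Aa and H2-Ab1, and 0.0257 for the brightest class.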

Other observations

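Beyond the H2 genes, the promoter pair shown above was found in other promoters, such as those of Mark3, Stard7 and Sf3b2. Of the 17 genes with the pair, 14 were measured, among them the 4 members shown above, whose promoters had been read before the motifs were written. The 14 had a median log2 ratio of -0.17, which is thus not independent of the members' values. Of the 14, 0 were past 2-fold in either direction, against 2.53% of all genes. Ift74 was at -0.56, Mark3 at -0.24, Stard7 at -0.18, Sf3b2 at -0.02 and Fam72a at 0.36. These genes were named after their values were seen.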
